A study of Homo sapiens with 18 samples.

Results

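Cyclins A, B, D and E are the regulatory subunits that switch on the cyclin-dependent kinases (CDKs) of the cell division cycle. D-type cyclins bind CDK4 and CDK6 and act in G1, E-type cyclins bind CDK2 at the entry to S phase, A-type cyclins bind CDK2 and then CDK1 through S phase and G2, and B-type cyclins bind CDK1 and drive mitosis. Their transcripts are made and lost within each cycle, and human embryonic stem cells have a short G1 in which E- and A-type cyclins are present for most of the cycle. The 9 genes described here, CCNA1, CCNA2, CCNB1, CCNB2, CCND1, CCND2, CCND3, CCNE1 and CCNE2, were taken by name from the 61860 genes of the count table.

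The series followed polyadenylated RNA in H1 cells, a line of human embryonic stem cells in long use, with NAT10 lowered or not. NAT10 is the RNA acetyltransferase that writes N4-acetylcytidine (ac4C). Knockdown cells carried an shRNA against NAT10 and control cells a negative control shRNA. Both were delivered by lentivirus (GV112 vector, GFP marker), GFP+ cells of both kinds were enriched and then grown in TeSR-E8 medium with puromycin, and both were treated with actinomycin D, which blocks transcription, for 0, 1.5 and 3.5 h, with 3 libraries in each of the 6 groups and 18 in all. All groups come from 1 cell line, the labels do not say how many shRNA sequences were used, and they do not name separate cultures behind the 3 replicate libraries. The p-values below therefore measure the spread among these libraries alone, and that spread may be technical.

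NAT10 was low in every knockdown library, at 17.2 to 24.1 CPM in the 9 knockdown libraries against 209 to 250 CPM in the 9 control libraries, where CPM is the read count scaled for library size with edgeR's TMM method. All 10 embryonic stem cell markers examined were measured in both genotypes at 0 h, with summed levels of 8526 to 8997 CPM in knockdown libraries and 10058 to 10651 CPM in control libraries, and 7 of the 10 passed the test as lower. Of 8 fibroblast markers, 5 were tested, 3 were higher and 1 lower at 0 h, with sums of 1099 to 1464 CPM in knockdown and 588 to 656 CPM in control, while COL3A1, LUM and DCN stayed under 1 CPM. Of 8 neural markers, 3 of the 5 tested were higher, with sums of 57.8 to 65.5 CPM in knockdown and 20.6 to 24.2 CPM in control, while PAX6 and SOX1 stayed under 1 CPM. Mesoderm, endoderm, trophoblast and germ cell lists each had 1 marker that was higher at 0 h and none that was lower, and the largest of their sums was 21.2 CPM. The part of these markers in the cyclin values was not tested. One library stood apart within its group: replicate 1 of the knockdown at 0 h differed from replicates 2 and 3 with a chi-square per degree of freedom of 15.2 and 21.8, while those 2 differed from each other at 2.14. Results that rest on it are given with and without it.

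Upstream sequence of the A- and B-type cyclins CCNA1, CCNA2, CCNB1 and CCNB2 was in the RefSeq promoter table, and the 250 bases before each start (build GRCh38.p14) are shown because CCNA2, CCNB1 and CCNB2 lay lower together at 0 h while CCNA1 lay far higher. Capitals mark matches on either strand to 2 motifs known from cell-cycle promoters, the CCAAT box (letters CCAAT) and the cell-cycle genes homology region, or CHR (letters TTTGAA).
CCNA1: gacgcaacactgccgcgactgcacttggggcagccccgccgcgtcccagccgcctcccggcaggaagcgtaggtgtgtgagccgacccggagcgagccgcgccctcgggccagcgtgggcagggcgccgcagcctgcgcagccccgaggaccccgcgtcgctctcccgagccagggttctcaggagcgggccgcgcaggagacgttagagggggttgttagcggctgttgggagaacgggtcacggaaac
CCNA2: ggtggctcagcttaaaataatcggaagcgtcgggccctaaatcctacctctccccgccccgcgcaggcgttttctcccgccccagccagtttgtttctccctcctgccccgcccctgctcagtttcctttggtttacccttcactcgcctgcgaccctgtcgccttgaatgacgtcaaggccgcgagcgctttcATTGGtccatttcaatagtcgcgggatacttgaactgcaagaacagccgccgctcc
CCNB1: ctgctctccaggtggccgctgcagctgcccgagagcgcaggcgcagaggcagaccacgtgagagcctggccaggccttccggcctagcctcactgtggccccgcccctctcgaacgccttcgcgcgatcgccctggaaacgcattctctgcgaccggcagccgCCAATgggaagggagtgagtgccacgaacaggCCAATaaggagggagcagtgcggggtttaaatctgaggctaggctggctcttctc
CCNB2: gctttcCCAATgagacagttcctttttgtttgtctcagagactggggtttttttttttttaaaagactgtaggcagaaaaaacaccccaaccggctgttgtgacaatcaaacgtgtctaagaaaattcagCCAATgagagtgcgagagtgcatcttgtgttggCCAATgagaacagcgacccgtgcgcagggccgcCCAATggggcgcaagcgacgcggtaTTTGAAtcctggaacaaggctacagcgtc
The windows are chr13:36431705-36431954, plus strand, for CCNA1, chr4:121823884-121824133, minus strand, for CCNA2, chr5:69166900-69167149, plus strand, for CCNB1, and chr15:59104896-59105145, plus strand, for CCNB2. CCNB2 held 4 CCAAT letters, starting 244, 120, 87 and 54 bases before the start, the last 3 spaced 33 bases apart, and a CHR match at 29 bases. CCNB1 held CCAAT at 87 and 55 bases, CCNA2 held it once, at 56 bases on the opposite strand, and CCNA1 held neither motif. CCND3, also called higher at 0 h, held CCAAT at 136 bases in promoter 2 and at 64 bases in promoter 3. Promoter 1 of CCND3 and the promoter of CCNE1 held neither motif. Among 35116 promoters of the table, cut to the same 250 bases, 32.0% held CCAAT, 13.3% held TTTGAA and 4.69% held both. The E2F-type letters TTTNNCGC, found in 5.92% of all promoters, were not in these windows of CCNA1, CCNA2, CCNB1 and CCNB2, nor in those of CCND3 and CCNE1. The core letters of the cyclic AMP response element, TGACG, held by 21.2% of promoters, occurred in CCNA2 on both strands, at 81 and 78 bases, the 2 matches overlapping. These are matches of letters and not measured sites. Variants of the motif letters, such as other forms of the CHR, were not searched. The part of these matches in the cyclin levels was not tested. RefSeq places these starts within or next to the first exons of the GENCODE models used below, so the windows overlap the gene coordinates given there. CCND1 and CCND2 are named only, and the promoter of CCNE2, which was lower at 0 h, was not searched.

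The cyclins were expressed over a wide range, which is compared here as TMM-scaled CPM per kilobase of exonic length. At 0 h CCNB1 was highest, at 81.4 ± 2.84 CPM per kb in knockdown cells and 101 ± 4.55 CPM per kb in control cells (SD, n = 3 each), followed by CCNA2 at 50.7 ± 5.18 in knockdown and 64.1 ± 2.07 in control. In knockdown cells the order then ran CCND1 (32.0), CCNB2 (25.5), CCNE1 (20.5), CCND2 (12.0), CCNA1 (5.46), CCND3 (4.57) and CCNE2 (0.743 CPM per kb). In control cells it ran CCNB2 (39.4), CCND1 (34.2), CCNE1 (20.2), CCND2 (11.9), CCND3 (3.37), CCNE2 (1.35) and CCNA1 (0.444 CPM per kb). CCNA1 stood above CCND3 and CCNE2 in knockdown and last in control. At 0 h no 2 neighbours in either order had libraries that overlapped. At 3.5 h the order was led by CCNA2 in both genotypes, at 53.5 ± 1.526 in knockdown and 47.4 ± 1.508 CPM per kb in control, and the libraries of CCNA2 overlapped those of its neighbour CCNB1 in knockdown, as those of CCNB2 and CCND1 did in control.

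Before the block, CCNA1 was higher in knockdown than in control, with the largest log2 fold change of the 9, and CCNE2, CCNB2, CCNA2 and CCNB1 were lower. CCND3 was also called higher (0.44), by more than CCNA2 (-0.34) and CCNB1 (-0.31) were lower, with a negative and uncalled value on the spike-in scale described below, while CCND1, CCND2 and CCNE1 were not called. Under TMM scaling, which sets each transcript against the typical one, 2 of the 9 genes rose and 4 fell (edgeR quasi-likelihood test, Benjamini-Hochberg adjusted p under 0.05), and 52.1% of the 16760 genes tested were called, 23.8% as higher and 28.3% as lower. The median log2 fold change of the 9 genes was -0.10 and that of all genes -0.04. All 9 passed the filter on low counts, also when it was applied to either genotype alone. Scaled instead to the ERCC spike-in, RNA of known amount that was added after the RNA had been purified, the median of all genes was -0.71, and 1 of the 9 was higher and 7 lower, against 69.7% of all genes called, 5.58% as higher and 64.1% as lower. Of all calls at 0 h, 45.7% were higher under TMM and 8.01% under ERCC scaling. Unless stated, values below are relative to the typical transcript. In bulk RNA, fewer cells in the phase that makes a cyclin and less of its RNA per cell cannot be told apart.

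**Figure D1:**
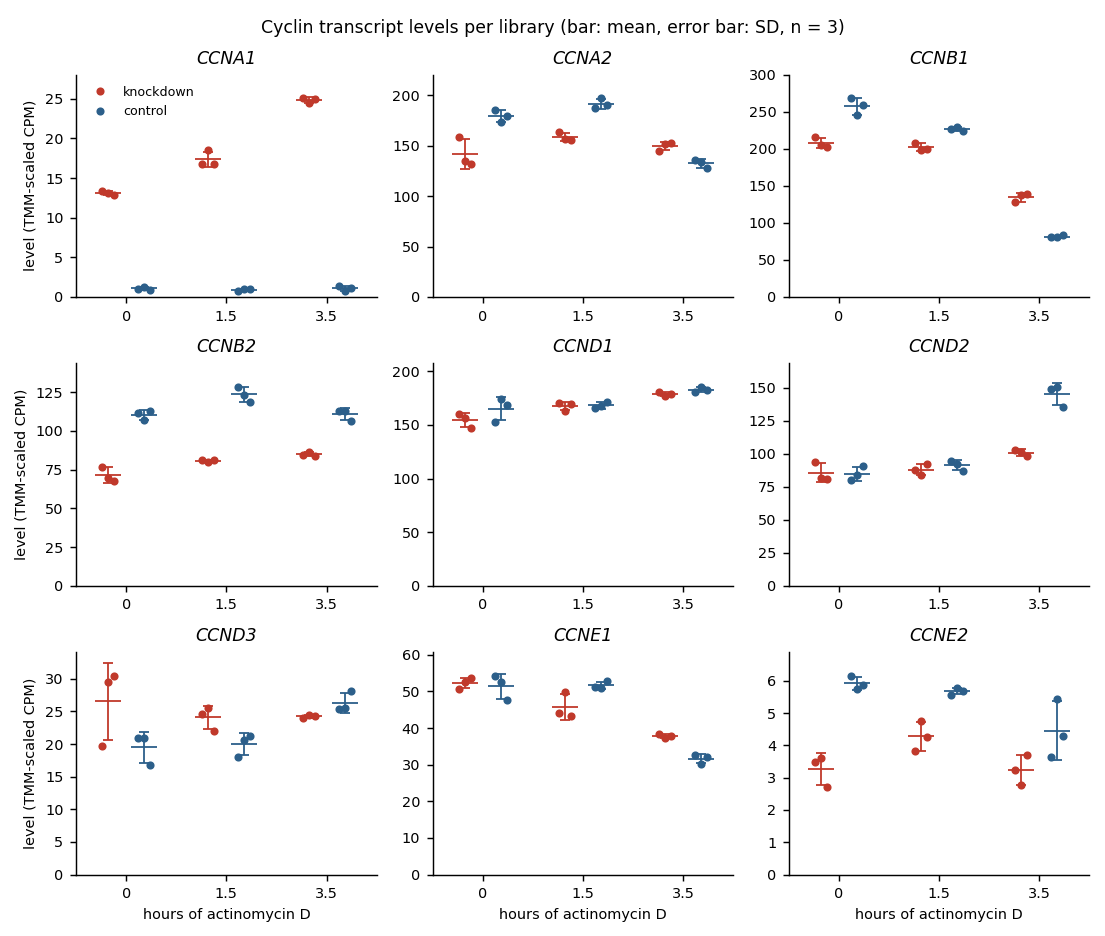
TMM-scaled CPM of each cyclin (y axis, from 0) in each of the 18 libraries against hours of actinomycin D (x axis), knockdown in red to the left of control in blue at each time. Points are libraries, bars are means and error bars SDs (n = 3). CCNA1 lies far above control in every knockdown library, and CCNB1 lies below control at 0 h and above it at 3.5 h, where its ERCC-scaled log2 fold change was -0.34.

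CCNA1 (ENSG00000133101, chromosome 13, 36431520 to 36442882, plus strand, hg38), the A-type cyclin known from germ cells and from some leukaemias, was the cyclin that differed most. At 0 h its level was 13.3, 13.1 and 12.8 CPM in knockdown libraries, against 1.05, 1.24 and 0.912 CPM in control libraries. The 3 knockdown libraries agreed closely and lay far above all control libraries, which held 49 reads of CCNA1 in total, against 666 in knockdown. The log2 fold change was 3.61 ± 0.14 (SE, edgeR quasi-likelihood test, adjusted p = 7.04e-16). It was 4.25 ± 0.14 at 1.5 h (edgeR, adjusted p = 2.72e-17), when knockdown libraries had 16.8, 18.5 and 16.8 CPM and control libraries 0.748, 0.951 and 1.02 CPM, and 4.50 ± 0.13 at 3.5 h (edgeR, adjusted p = 2.70e-18), at 25.0, 24.4 and 25.0 CPM against 1.38, 0.799 and 1.09 CPM. Of the 3 germ cell markers tested, MAEL was higher at all 3 times (2.08 ± 0.59, 2.98 ± 0.65 and 2.45 ± 0.60, edgeR, adjusted p = 0.0048, 0.000452 and 0.00108), DAZL at 3.5 h (0.44 ± 0.16, edgeR, adjusted p = 0.0194), and TDRD1 was not called (0.94 ± 0.55 at 0 h, edgeR, adjusted p = 0.157). The 6 listed markers summed to 8.91 to 10.3 CPM in knockdown and 6.32 to 6.93 CPM in control at 0 h, with DDX4, TDRD1 and MAEL under 1 CPM, and their part in the CCNA1 values was not tested.

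CCNA2 (ENSG00000145386, chromosome 4, 121816444 to 121823933, minus strand), the A-type cyclin of dividing somatic cells, had 158, 135 and 132 CPM in knockdown libraries at 0 h, against 185, 174 and 179 CPM in control libraries. All knockdown libraries were below all control libraries, and the highest of them was replicate 1, the library that stands apart. The log2 fold change was -0.34 ± 0.06 (edgeR, adjusted p = 4.53e-05), and at 1.5 h it was -0.27 ± 0.06 (edgeR, adjusted p = 0.000437). At 3.5 h CCNA2 had 145, 152 and 153 CPM in knockdown against 136, 134 and 128 CPM in control. The value was then 0.17 ± 0.06 relative to the typical transcript (edgeR, adjusted p = 0.015) and -0.89 ± 0.20 under ERCC scaling (edgeR, adjusted p = 1.38e-05), so the direction depended on the scale. The 3.5 h call was lost without control replicate 3 (0.15, adjusted p = 0.0746) or knockdown replicate 2 (0.17, adjusted p = 0.0524) or 3 (0.16, adjusted p = 0.057) of that time. It was also lost with DESeq2's size factors in edgeR (0.12, adjusted p = 0.0811) and in DESeq2's Wald test (0.12, adjusted p = 0.0924). Some exonic sequence of CCNA2 is shared with EXOSC9 on the opposite strand, and whether counting used the strand is not given in the sources used here.

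Within the A-type pair the make-up shifted, a measure that no scaling between libraries can change. Per kilobase, CCNA1 made up 9.76 ± 0.727% of A-type transcripts in knockdown cells at 0 h, against 0.690 ± 0.122% in control cells (SD, n = 3 each). At 3.5 h it made up 16.2 ± 0.505% in knockdown, against 0.949 ± 0.244% in control. CCNA2 remained the larger of the pair in every library.

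CCNB1 (ENSG00000134057, chromosome 5, 69167010 to 69178245, plus strand), the main mitotic cyclin, had 217, 205 and 203 CPM in knockdown libraries at 0 h, against 268, 245 and 259 CPM in control libraries. The groups did not overlap, and the log2 fold change was -0.31 ± 0.05 (edgeR, adjusted p = 1.63e-05). At 1.5 h it was -0.17 ± 0.05 (edgeR, adjusted p = 0.00724), with 199 to 209 CPM in knockdown and 224 to 230 CPM in control. At 3.5 h CCNB1 had 128, 137 and 139 CPM in knockdown against 81.2, 80.6 and 83.2 CPM in control. On this scale every knockdown library was then above every control library. The log2 fold change at 3.5 h was 0.72 ± 0.05 relative to the typical transcript (edgeR, adjusted p = 3.30e-11) and -0.34 ± 0.20 under ERCC scaling (edgeR, adjusted p = 0.0992), where the median of all genes was -0.98.

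CCNB2 (ENSG00000157456, chromosome 15, 59105078 to 59125045, plus strand), the second mitotic B-type cyclin, was lower at all 3 times under both scalings. It had 76.9, 69.8 and 67.4 CPM in knockdown libraries at 0 h, against 112, 107 and 112 CPM in control libraries, a log2 fold change of -0.63 ± 0.06 (edgeR, adjusted p = 2.38e-09). No knockdown library reached the lowest control library. The log2 fold change was -0.61 ± 0.06 at 1.5 h (edgeR, adjusted p = 2.64e-09) and -0.39 ± 0.06 at 3.5 h (edgeR, adjusted p = 2.87e-06), when knockdown libraries had 84.2, 86.2 and 83.8 CPM and control libraries 113, 113 and 106 CPM. CCNB2 has a processed pseudogene, CCNB2P1, so reads may be split between near copies. CCNB1 made up 76.2 ± 0.614% of B-type transcripts per kilobase in knockdown and 71.9 ± 0.525% in control at 0 h (SD, n = 3 each). At 3.5 h its share was 63.5 ± 1.04% in knockdown and 44.7 ± 1.31% in control, so CCNB1 was the larger of the pair in knockdown and the smaller in control.

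Among the D-type cyclins, CCND1 (ENSG00000110092, chromosome 11, 69641087 to 69654474, plus strand), also known as a cancer gene, was the most abundant and, under TMM scaling, was called at none of the 3 times. At 0 h it ran from 148 to 160 CPM in knockdown and from 153 to 175 CPM in control, and at 3.5 h from 177 to 181 CPM in knockdown and from 181 to 185 CPM in control. The log2 fold changes were -0.10 ± 0.05, -0.01 ± 0.05 and -0.03 ± 0.05 at 0, 1.5 and 3.5 h (edgeR, adjusted p = 0.122, 0.934 and 0.615). At 0 h CCND1 passed the test as lower without control replicate 1 (-0.15, adjusted p = 0.0313) or knockdown replicate 1 (-0.13, adjusted p = 0.0287). Under ERCC scaling CCND1 was lower at each time, at -0.75, -0.54 and -1.10 (edgeR, adjusted p = 0.000352, 0.0118 and 8.54e-08), beside medians of all genes of -0.71, -0.52 and -0.98. It shares exonic sequence with LTO1 on the opposite strand.

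CCND2 (ENSG00000118971, chromosome 12, 4273772 to 4305350, plus strand), a D-type cyclin known from ovary and brain, stood level between the genotypes at 0 h on the TMM scale and apart at 3.5 h. It had 94.0, 81.6 and 81.2 CPM in knockdown libraries at 0 h, against 80.3, 84.0 and 90.7 CPM in control libraries, a log2 fold change of 0.01 ± 0.07 (edgeR, adjusted p = 0.912). The groups overlapped at 0 h and also at 1.5 h, when the log2 fold change was -0.05 ± 0.07 (edgeR, adjusted p = 0.519). At 3.5 h it had 103, 102 and 98.2 CPM in knockdown libraries, against 149, 151 and 135 CPM in control libraries. All knockdown libraries were then below all control libraries, at a log2 fold change of -0.52 ± 0.07 (edgeR, adjusted p = 2.99e-07). Under ERCC scaling CCND2 was lower at 0 h too (-0.64, adjusted p = 0.0024), near the median of all genes, and at 3.5 h (-1.59, adjusted p = 3.05e-14). CCND2 overlaps the antisense gene CCND2-AS1 and the same-strand gene AC008012.1 in exons and has the pseudogene CCND2P1.

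CCND3 (ENSG00000112576, chromosome 6, 41934933 to 42050357, minus strand), the D-type cyclin best known from lymphoid cells, was called higher at 0 h relative to the typical transcript, although its groups overlapped, and was not called under ERCC scaling, where its value was negative. It had 19.7, 29.5 and 30.4 CPM in knockdown libraries, against 20.9, 20.9 and 16.8 CPM in control libraries. The low knockdown library was replicate 1, the one that stands apart, and the other two were above all controls. The log2 fold change was 0.44 ± 0.12 (edgeR, adjusted p = 0.00387), and 0.61 without that library (edgeR, adjusted p = 2.2e-07), and under ERCC scaling it was -0.27 ± 0.20 (adjusted p = 0.229). At 1.5 h the value was 0.27 ± 0.12 (edgeR, adjusted p = 0.0711), which passed when the fit left out knockdown replicate 1 of 0 h (0.26, adjusted p = 0.00655), applied no filter on low counts (0.26, adjusted p = 0.031) or used the compared groups only (0.27, adjusted p = 0.0031). Under ERCC scaling it was -0.28 at 1.5 h (adjusted p = 0.228). At 3.5 h it was -0.12 ± 0.12 (edgeR, adjusted p = 0.416), with 24.0 to 24.5 CPM in knockdown and 25.4 to 28.1 CPM in control. CCND3 has the pseudogenes CCND3P1 and CCND3P2 and overlaps AL513008.1 on the opposite strand.

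CCNE1 (ENSG00000105173, chromosome 19, 29811898 to 29824308, plus strand), the main E-type cyclin here, was near the control at 0 h relative to the typical transcript, and lower under ERCC scaling (-0.65, edgeR, adjusted p = 0.00208). It ran from 50.7 to 53.6 CPM in knockdown and from 47.6 to 54.2 CPM in control at 0 h, and the log2 fold change was 0.03 ± 0.07 (edgeR, adjusted p = 0.772). At 1.5 h CCNE1 was lower, with 43.4 to 49.8 CPM in knockdown and 51.0 to 52.8 CPM in control (-0.18 ± 0.07, edgeR, adjusted p = 0.0287). That call was lost without control replicate 3 (-0.17, adjusted p = 0.0706) or knockdown replicate 1 (-0.16, adjusted p = 0.0907) or 3 (-0.15, adjusted p = 0.103) of that time, and with no filter on low counts (-0.18, adjusted p = 0.0942). At 3.5 h CCNE1 was higher relative to the typical transcript, with 37.2 to 38.3 CPM in knockdown and 30.3 to 32.6 CPM in control (0.26 ± 0.07, edgeR, adjusted p = 0.00306), and lower under ERCC scaling (-0.80, adjusted p = 0.000144).

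CCNE2 (ENSG00000175305, chromosome 8, 94879770 to 94896678, minus strand), the second E-type cyclin, was the least abundant cyclin in knockdown cells and was lower at all 3 times under both scalings. At 0 h it had 3.49, 3.60 and 2.70 CPM in knockdown libraries, against 6.15, 5.74 and 5.86 CPM in control libraries. The groups did not overlap, and the log2 fold change was -0.86 ± 0.15 (edgeR, adjusted p = 4.11e-05). It was -0.41 ± 0.15 at 1.5 h (edgeR, adjusted p = 0.0215) and -0.46 ± 0.16 at 3.5 h (edgeR, adjusted p = 0.0181). The 1.5 h call was lost without control replicate 2 (-0.40, adjusted p = 0.0541) or knockdown replicate 1 (-0.34, adjusted p = 0.0895) of that time, and the 3.5 h call without control replicate 2 (-0.29, adjusted p = 0.167) or knockdown replicate 2 (-0.36, adjusted p = 0.0955). With 144 to 272 reads of CCNE2 per group of 3 libraries, counting error is larger here than for any cyclin but CCNA1. Much exonic sequence of CCNE2 overlaps INTS8 on the opposite strand.

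Over the 3 times the set of calls changed. At 1.5 h 1 of the 9 cyclins was higher and 5 were lower, against 54.6% of all genes called (28.4% higher, 26.2% lower), and at 3.5 h 4 were higher and 3 lower, against 61.4% called (35.0% higher, 26.4% lower). The libraries of the 2 genotypes did not overlap for 5 of the 9 cyclins at 0 h, 7 at 1.5 h and 7 at 3.5 h, and for 50.6%, 64.3% and 69.3% of all genes tested. The 4 that were higher at 3.5 h were CCNA1, CCNA2, CCNB1 and CCNE1, and under ERCC scaling CCNA1 alone was higher at each time, with 7 lower at each time. Under ERCC scaling 57.9% of all genes were called at 1.5 h (8.20% higher, 49.7% lower) and 76.4% at 3.5 h (4.71% higher, 71.7% lower). Of all calls 52.1% were higher at 1.5 h and 57.0% at 3.5 h under TMM, against 14.2% and 6.16% under ERCC scaling.

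**Figure D2:**
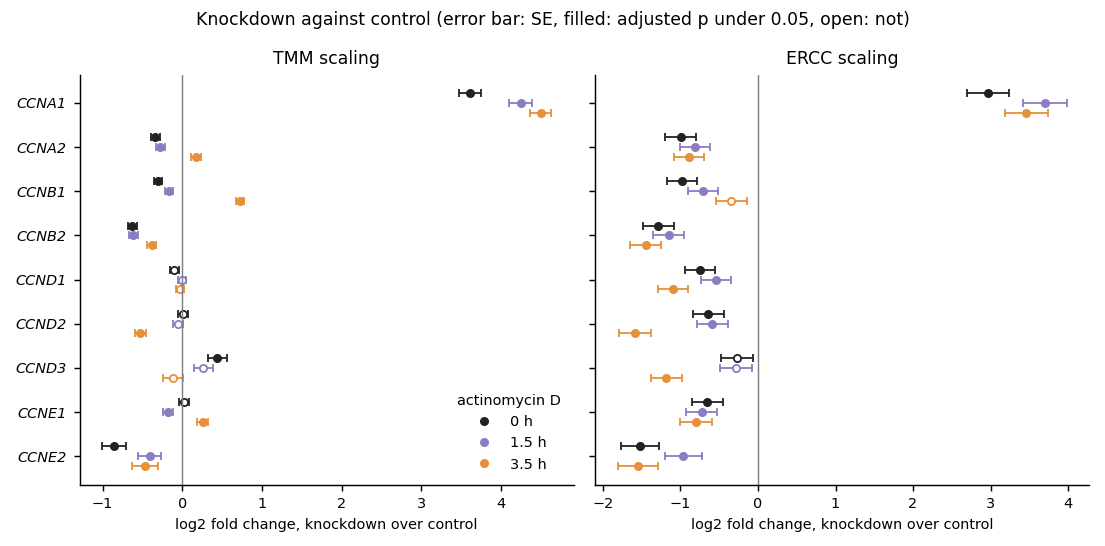
Log2 fold change of knockdown over control (x axis) for each cyclin (rows) at 0, 1.5 and 3.5 h, under TMM scaling (left) and ERCC scaling (right). Error bars are SEs, filled points have an edgeR adjusted p under 0.05 and open points do not. CCNA1 lies above 2.9 at every time under both scalings, and CCNA2, CCNB1 and CCNE1 lie above 0 at 3.5 h under TMM scaling and below 0 under ERCC scaling.

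The loss of cyclin transcripts after the block was followed on the ERCC scale, because a scale set by the typical transcript hides a loss that most transcripts share. The spike-in went in after RNA purification, so this scale reads polyadenylated RNA per amount of purified RNA, and only if that amount was the same in every library, which the labels do not state. The amount left is a percentage of that genotype's own 0 h mean. It rests on the summed spike-in counts of each library, and at 0 h these alone spread the 3 libraries widely: CCNB1, for example, had 125, 90.9 and 83.9% in knockdown and 124, 80.2 and 95.4% in control. The median log2 change from 0 to 3.5 h was -1.46 for the cyclins and -1.47 for all genes in knockdown, and -1.12 for the cyclins and -1.14 for all genes in control. The members lay on both sides of these medians, from CCNB1 with 22.4% left to CCNA1 with 65.9% left in knockdown, and from CCNB1 with 14.4% left to CCND2 with 78.6% left in control.

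In knockdown cells all 9 cyclins were lower at 3.5 h than at 0 h, against 97.3% of all genes, and in control cells 8 of the 9 were lower, against 81.1%. Relative to the typical transcript the same comparison gave 4 higher and 2 lower in knockdown, against 47.9% of all genes called (25.1% higher, 22.8% lower), and 3 higher and 4 lower in control, against 66.3% (31.6% higher, 34.6% lower). At 1.5 h 4 of the 9 were lower than at 0 h in knockdown, against 47.4% of all genes, and 9 of the 9 in control, against 74.6%, where the TMM scale gave 2 in control, against 26.5%. These 1.5 h counts rest on single libraries: 2 were called in knockdown without knockdown replicate 1 of 0 h, 7 without replicate 3 of 0 h and 1 without replicate 2 of 1.5 h, and 2 in control without control replicate 1 of 0 h.

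Of the 9 cyclins CCNB1 had the smallest percentage left at 3.5 h in both genotypes, while at 1.5 h in knockdown CCNE1 (60.1%) and CCND3 (64.0%) had less left than CCNB1 (66.9%). At 3.5 h 22.8, 24.8 and 19.6% of it was left in knockdown libraries, against 12.3, 16.7 and 14.4% in control libraries. The knockdown libraries kept more than every control library, but the difference between the genotypes in the change from 0 to 3.5 h was 0.63 ± 0.28 on the log2 scale and did not pass (edgeR, adjusted p = 0.105). It passed without knockdown replicate 1 of 0 h (0.83, adjusted p = 0.0225). Relative to the typical transcript it was 1.03 ± 0.07 (edgeR, adjusted p = 2.51e-10). CCNE1 was next, with 25.3 ± 3.29% left in knockdown and 28.0 ± 3.38% in control (SD, n = 3 each). In knockdown CCND3 came next, at 32.8%. CCNE2 had 33.8 ± 2.64% in knockdown and 35.1 ± 12.8% in control, and CCNA2 had 36.3 ± 4.39% in knockdown and 33.7 ± 5.46% in control. For CCNE1, CCNE2 and CCNA2 the means of the genotypes lay within an SD of each other.

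On the ERCC scale CCND2 and CCND3 were the 2 cyclins whose loss differed between the genotypes by the test. Of CCND2, 44.5, 44.2 and 33.5% was left in knockdown libraries at 3.5 h, against 68.9, 95.3 and 71.6% in control libraries. The groups did not overlap, and in control CCND2 was the cyclin whose fall from 0 to 3.5 h did not pass (-0.35 ± 0.20, edgeR, adjusted p = 0.0911). That fall passed without control replicate 2 of 0 h (-0.46, adjusted p = 0.0388) or of 3.5 h (-0.51, adjusted p = 0.0236). At 1.5 h the genotypes were level, at 70.6 ± 13.8% in knockdown and 68.1 ± 5.11% in control (SD, n = 3 each). The change of CCND2 from 1.5 to 3.5 h differed between knockdown and control by -0.998 ± 0.28 (edgeR, adjusted p = 0.00566), a call that held with each library left out in turn (highest adjusted p = 0.0428). The median of all genes for that difference was -0.49 on the ERCC scale, and under TMM scaling CCND2 was at -0.47. From 0 to 3.5 h the difference for CCND2 was -0.95 ± 0.28 (edgeR, adjusted p = 0.0116). It was lost without control replicate 2 of 0 h (-0.84, adjusted p = 0.0512) or of 3.5 h (-0.79, adjusted p = 0.0687), and without knockdown replicate 1 of 0 h (-0.70, adjusted p = 0.0621) or replicate 3 of 3.5 h (-0.82, adjusted p = 0.0543).

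Of CCND3, 34.8, 35.8 and 27.8% was left at 3.5 h in knockdown libraries, against 50.6, 69.9 and 64.2% in control libraries. All knockdown libraries were below all control libraries, while at 1.5 h the means were 64.0 ± 5.67% in knockdown and 64.3 ± 3.76% in control (SD, n = 3 each). The difference for CCND3 was -0.91 ± 0.29 from 0 to 3.5 h (edgeR, adjusted p = 0.0204) and -0.90 ± 0.29 from 1.5 to 3.5 h (edgeR, adjusted p = 0.0175). The call from 0 to 3.5 h was lost in a fit of the compared groups only (adjusted p = 0.0547) and in 6 of 18 fits that each left out 1 library. Those were control replicates 2 (-0.84, adjusted p = 0.059) and 3 (-0.79, adjusted p = 0.105) of 0 h, control replicates 2 (-0.81, adjusted p = 0.0707) and 3 (-0.88, adjusted p = 0.0597) of 3.5 h, knockdown replicate 2 of 0 h (-0.87, adjusted p = 0.0545) and knockdown replicate 3 of 3.5 h (-0.80, adjusted p = 0.0733). The call from 1.5 to 3.5 h was lost without control replicate 2 of 1.5 h (-0.89, adjusted p = 0.0519) or of 3.5 h (-0.80, adjusted p = 0.066), and without knockdown replicate 1 of 1.5 h (-0.85, adjusted p = 0.0571) or replicate 3 of 3.5 h (-0.79, adjusted p = 0.0708). Under TMM scaling both genes had the same sign from 0 to 3.5 h, at -0.53 ± 0.09 for CCND2 (edgeR, adjusted p = 9.02e-05) and -0.56 ± 0.17 for CCND3 (edgeR, adjusted p = 0.0132), while the CCND3 difference from 1.5 to 3.5 h was not called there (-0.38, adjusted p = 0.0998).

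**Figure D3:**
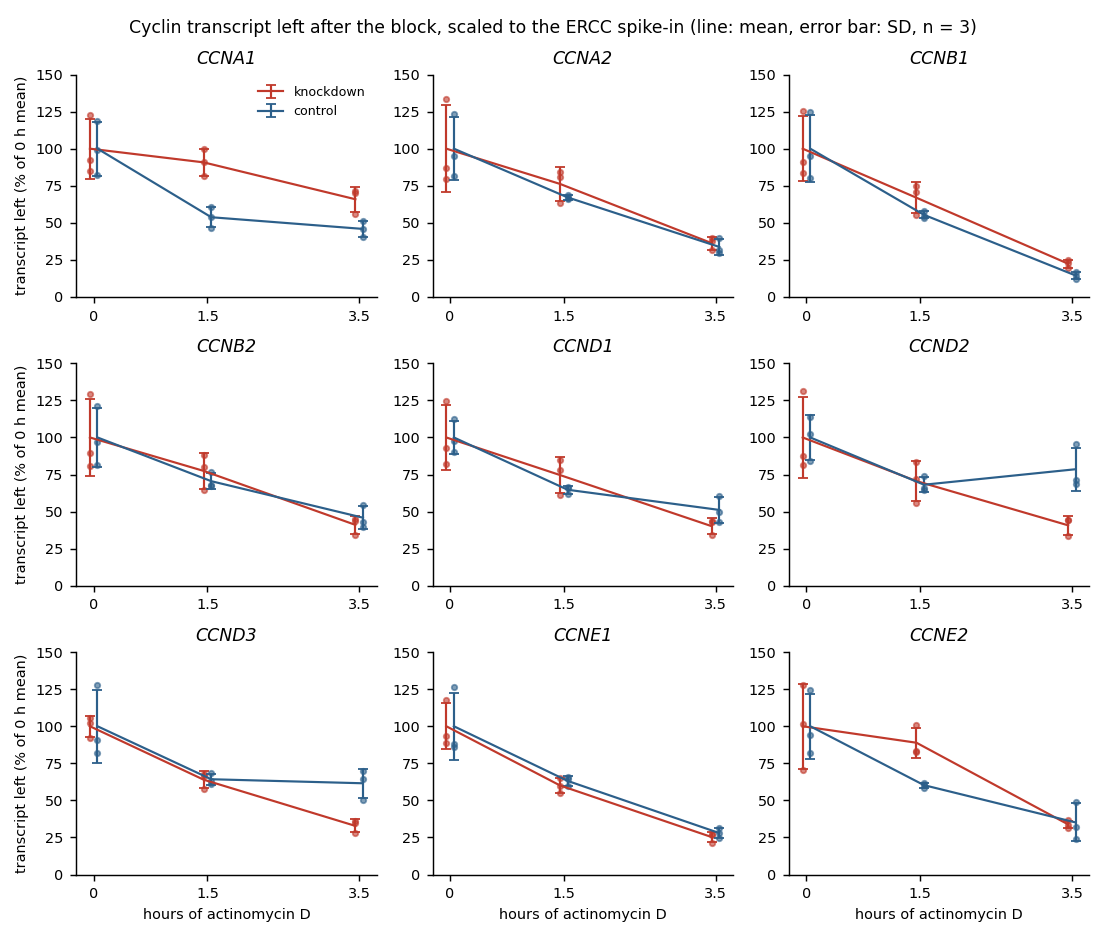
Percentage of each cyclin transcript left (y axis, ERCC-scaled, relative to that genotype's 0 h mean) against hours of actinomycin D (x axis), knockdown in red and control in blue. Points are libraries, lines join means and error bars are SDs (n = 3). The genotypes separate at 3.5 h for CCND2, at 40.7% in knockdown and 78.6% in control, and for CCND3, at 32.8% and 61.5%.

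The other cyclins were not called for a difference in loss on the ERCC scale. CCNA1 had 71.3, 70.2 and 56.2% left at 3.5 h in knockdown libraries, against 51.1, 40.4 and 46.1% in control libraries, groups that did not overlap, with a genotype difference of 0.49 ± 0.41 (edgeR, adjusted p = 0.422). At 1.5 h the genotypes were also apart for CCNA1, at 91.0, 81.5 and 99.8% left in knockdown against 46.7, 54.1 and 60.5% in control, and for CCNE2, at 82.7, 83.3 and 101% in knockdown against 62.0, 58.5 and 60.3% in control. Neither difference from 0 to 1.5 h passed (0.74 ± 0.42 for CCNA1 and 0.56 ± 0.34 for CCNE2, edgeR, adjusted p = 1 for both). CCNB2 had 41.1 ± 5.87% left in knockdown and 45.9 ± 7.85% in control (SD, n = 3 each), and CCND1 40.1 ± 5.39% in knockdown and 51.1 ± 8.81% in control, with differences of -0.16 ± 0.28 and -0.35 ± 0.28 (edgeR, adjusted p = 0.732 and 0.401). SEs of about 0.28 leave changes of that size undetected. In all, 2 of the 9 cyclins were called for the change from 0 to 3.5 h, both lower, against 12.2% of all genes (9.51% lower, 2.68% higher), 2 for the change from 1.5 to 3.5 h, both lower, against 19.8% (18.7% lower), and 0 from 0 to 1.5 h, against 0.0239%. For that first interval 0 of the 9 had an unadjusted p under 0.05 in edgeR on the ERCC scale, and DESeq2's Wald test also called 0. Under TMM scaling edgeR called 0 of the 9 there too, with an unadjusted p under 0.05 for CCNA1 (log2 difference 0.64), CCNE1 (-0.20) and CCNE2 (0.45). The median difference from 0 to 3.5 h was -0.15 for the cyclins and -0.32 for all genes. Under TMM scaling 6 of the 9 were called from 0 to 3.5 h, against 36.8% of all genes (24.3% higher, 12.5% lower), with CCNA1 (0.89), CCNA2 (0.51), CCNB1 (1.03) and CCNB2 (0.24, against -0.16 under ERCC scaling) higher and CCND2 and CCND3 lower. Of all calls for that change 21.98% were higher under ERCC and 66.1% under TMM scaling.

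The authors' deposited table gives 1 half-life per gene and genotype, with no error. In the authors' deposited table CCND2 had a half-life of 2.74 h in knockdown and 10.6 h in control, and CCND3 2.195 h in knockdown and 4.94 h in control, beside medians over the table of 2.56 h in knockdown and 3.05 h in control. In control cells 93.4% of the genes in the authors' deposited table had a shorter half-life than CCND2, against 59.7% in knockdown cells. CCNA1 went the other way in the authors' deposited table, at 5.91 h in knockdown and 2.81 h in control. The control groups held few reads of CCNA1, 49 at 0 h, 40 at 1.5 h and 45 at 3.5 h. In knockdown cells 98.9% of the genes had a shorter half-life than CCNA1, against 44.9% in control cells. CCNB1 had the shortest deposited control half-life of the 9, at 1.90 h in knockdown and 1.532 h in control. The remaining authors' deposited half-lives ran from 1.85 h (CCNE1) to 2.92 h (CCNB2) in knockdown and from 2.11 h (CCNE1) to 3.509 h (CCND1) in control.

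A log-linear slope over the 3 times, fitted to the counts on the ERCC scale, gave half-lives with errors, which are separate estimates from the deposited ones. The fitted half-life of CCND2 was 2.69 h in knockdown (2.33 to 3.19 h at 1 SE) and 11.2 h in control (6.95 to 28.8 h). Its control slope, -0.089 ± 0.055 log2 units per hour, was not called, so that half-life has no firm upper bound. The control slope passed without control replicate 2 of 3.5 h (-0.15, edgeR, adjusted p = 0.0159). The fitted half-life of CCND3 was 2.17 h in knockdown (1.91 to 2.501 h) and 5.25 h in control (4.01 to 7.59 h). The slopes differed by -0.28 ± 0.08 log2 units per hour for CCND2 (edgeR, adjusted p = 0.00708) and -0.27 ± 0.08 for CCND3 (edgeR, adjusted p = 0.0169), 2 of 9 called, both lower, against 13.4% of all genes (11.0% lower). The median slope difference of all genes was -0.098. Under TMM scaling 5 of 9 slopes differed, against 31.6%, and 5 of 9 changes from 1.5 to 3.5 h, against 29.8%. CCND2 lost this call without knockdown replicate 1 of 0 h (-0.23, adjusted p = 0.0508) or control replicate 2 of 3.5 h (-0.22, adjusted p = 0.0711). CCND3 lost it without control replicate 2 (-0.23, adjusted p = 0.0829) or 3 (-0.25, adjusted p = 0.0696) or knockdown replicate 3 (-0.24, adjusted p = 0.0633) of 3.5 h. For CCNA1 the fitted half-life was 5.72 h in knockdown (4.19 to 9.02 h) and 3.30 h in control (2.45 to 5.05 h), ranges that overlap, with a slope difference of 0.13 ± 0.12 (edgeR, adjusted p = 0.488). Of all slope differences called, 18.0% were higher in knockdown under ERCC and 64.9% under TMM scaling.

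**Figure D4:**
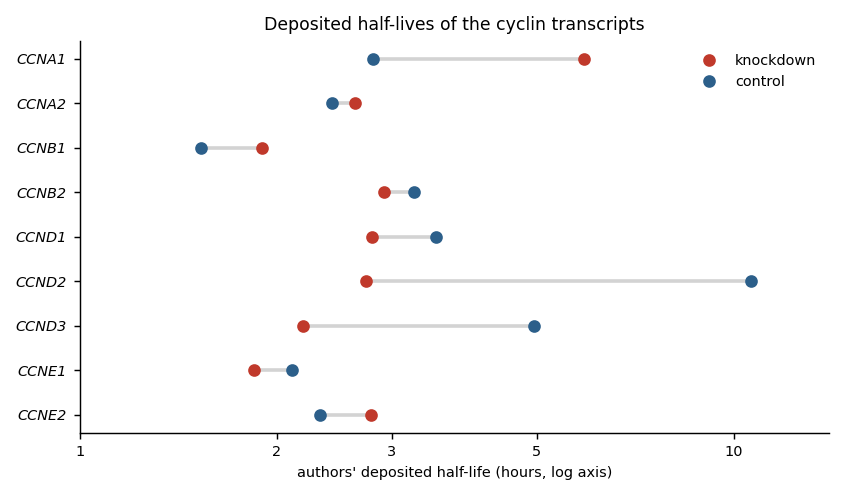
Half-lives from the authors' deposited table (x axis, hours, log axis) for each cyclin (rows), knockdown in red and control in blue, with 1 value per gene and genotype and no error. CCND2 and CCND3 have the widest gaps with the shorter value in knockdown (2.74 against 10.6 h and 2.195 against 4.94 h). CCNA1 has the widest in the other direction (5.91 against 2.81 h), its control value resting on 40 to 49 reads per group.

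**Figure D5:**
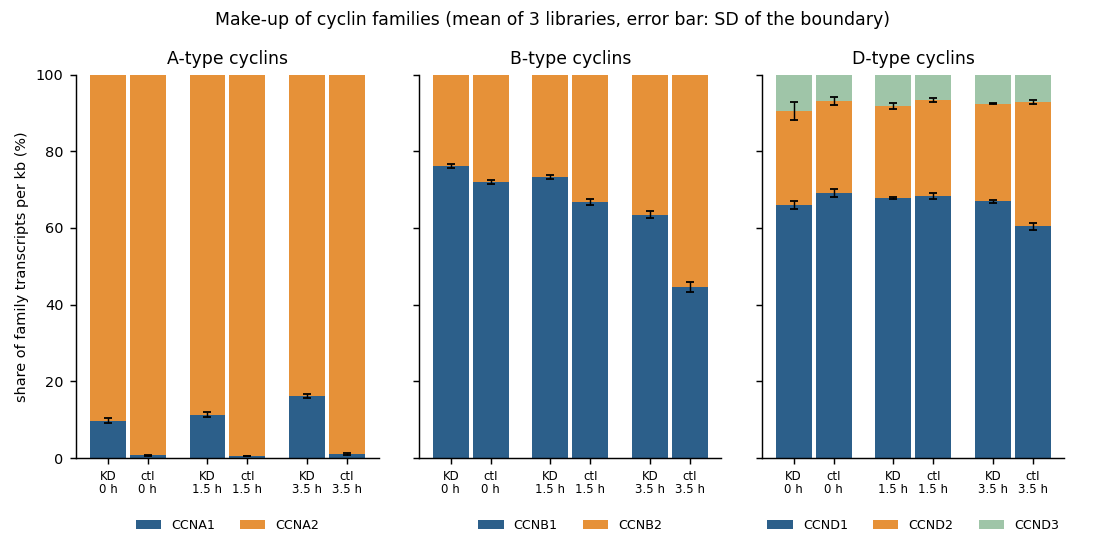
Make-up of the A-, B- and D-type cyclin families (y axis, percentage of the family's transcripts per kilobase) at 0, 1.5 and 3.5 h (x axis), with knockdown (KD) left of control (ctl) at each time. Bars are means of 3 libraries, and error bars are the SD of the boundary. The share of CCNB1 at 3.5 h is 63.5% in knockdown and 44.7% in control, and that of CCND2 25.5% and 32.3%.

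Within the D-type family, the share of CCND1 was smaller in knockdown at 0 h and larger at 3.5 h. At 0 h CCND1 made up 65.9 ± 1.01% of D-type transcripts per kilobase in knockdown and 69.2 ± 1.03% in control, and CCND2 24.6 ± 1.61% in knockdown and 24.0 ± 1.18% in control (SD, n = 3 each). The CCND1 libraries did not overlap, at 64.8 to 66.7% in knockdown and 68.1 to 70.2% in control, while CCND3 made up 9.45 ± 2.31% in knockdown and 6.83 ± 1.004% in control, groups that overlapped. At 1.5 h the shares of CCND1, CCND2 and CCND3 were 67.8, 24.0 and 8.12% in knockdown, against 68.2, 25.0 and 6.75% in control. At 3.5 h CCND1 made up 66.9 ± 0.414% in knockdown and 60.4 ± 0.873% in control, and CCND2 25.5 ± 0.429% in knockdown and 32.3 ± 1.39% in control. The 3 knockdown libraries of CCND2 lay between 25.0 and 25.8% and the 3 control libraries between 30.7 and 33.3%. CCND3 made up 7.57 ± 0.156% in knockdown and 7.25 ± 0.534% in control at 3.5 h, groups that overlapped. The E-type pair was dominated by CCNE1, with 96.5 ± 0.575% in knockdown and 93.7 ± 0.363% in control at 0 h.

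The kinase partners and regulators of the cyclins were read at 0 h from lists drawn up for this purpose, beside 23.8% of all genes higher and 28.3% lower under TMM scaling, and 5.58% higher and 64.1% lower under ERCC scaling. Of the 4 CDK partners, CDK6, the partner of D-type cyclins, was higher and the other three were lower. CDK6 averaged 70.7 ± 5.62 CPM in knockdown and 31.1 ± 3.95 CPM in control, and its log2 fold change was 1.18 ± 0.08 (edgeR, adjusted p = 1.70e-11). CDK1, the partner of B-type cyclins, had -0.53 ± 0.10, CDK4 -0.31 ± 0.05 and CDK2 -0.29 ± 0.07 (edgeR, adjusted p = 5.99e-05, 4.31e-05 and 0.00136). These directions were the same under ERCC scaling, and the call for CDK2 was lost in a fit of the compared groups only (-0.24, adjusted p = 0.0584). Of the CDK-activating kinase, CDK7 was lower (-0.61 ± 0.11, edgeR, adjusted p = 9.23e-05) and CCNH and MNAT1 were not called (-0.31 and -0.23, adjusted p = 0.0834 and 0.0605). MNAT1 was called lower without knockdown replicate 1 of 0 h (-0.38, adjusted p = 0.000338), as was CCNH (-0.46, adjusted p = 0.00379), which was also called without control replicate 2 (-0.44, adjusted p = 0.0188) or with no filter (-0.28, adjusted p = 0.0259).

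The CDK inhibitors hold CDKs or cyclin-CDK complexes inactive. Among them 5 of 6 tested genes were higher relative to the typical transcript, against 23.8% of all genes. Under ERCC scaling 2 of 6 were higher, against 5.58%, and none was lower on either scale. The median log2 fold change of the 6 was 1.04, against -0.04 for all genes, and CDKN2C was not tested. CDKN1A (p21) averaged 9.16 ± 1.88 CPM in knockdown and 1.46 ± 0.53 CPM in control (SD, n = 3 each), for a log2 difference of 2.64 ± 0.20 (edgeR, adjusted p = 1.51e-10). CDKN2B (p15) had 58 reads in the 3 knockdown libraries and 2 in the 3 control libraries, a 26.2-fold ratio, with 95% exact Clopper-Pearson bounds of 6.94 and 222. CDKN1C (p57) had 1.37 ± 0.27 and CDKN1B (p27) 0.63 ± 0.13 (edgeR, adjusted p = 0.000153 and 0.000199). Under ERCC scaling the 2 higher genes were CDKN1A (1.96) and CDKN2B, while CDKN1C was at 0.70 (adjusted p = 0.104) and CDKN1B at -0.01 (adjusted p = 0.967).

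WEE1, the kinase that holds CDK1 inactive by phosphorylation, averaged 237 ± 16.7 CPM in knockdown and 76.1 ± 3.02 CPM in control (SD, n = 3 each), for a log2 difference of 1.64 ± 0.06 (edgeR, adjusted p = 7.77e-16), and it was also higher under ERCC scaling (0.99, adjusted p = 3.61e-06). Of the other 4 genes of its list, the CDC25 phosphatases CDC25B and CDC25C, which reverse that phosphorylation, were lower (-0.23 and -0.28, edgeR, adjusted p = 0.0325 and 0.0134). The CDC25B call was lost without control replicate 1 (-0.18, adjusted p = 0.139) or 2 (-0.19, adjusted p = 0.112) or knockdown replicate 1 (-0.16, adjusted p = 0.114) of 0 h, with no filter on low counts (-0.21, adjusted p = 0.0831) and with the compared groups only (-0.19, adjusted p = 0.243). The CDC25C call was lost in a fit of the compared groups only (-0.24, adjusted p = 0.0553).

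Of 13 genes of the RB and E2F families, the transcriptional switch that D- and E-type cyclins act on, 7 were lower and none higher at 0 h under TMM scaling, against 28.3% of all genes lower, and all 13 were lower under ERCC scaling, against 64.1%. At 3.5 h 5 were higher and 3 lower under TMM scaling, against 35.0% and 26.4% of all genes, and 12 lower under ERCC scaling, against 71.7%. At 0 h E2F3 had -0.52 ± 0.07, TFDP1 -0.35 ± 0.05 and E2F8 -0.73 ± 0.11 (edgeR, adjusted p = 2.2e-06, 2.39e-06 and 8.62e-06). E2F1 was called lower (-0.21 ± 0.08, edgeR, adjusted p = 0.0428), a call lost without control replicate 1 (-0.21, adjusted p = 0.0724) or 2 (-0.13, adjusted p = 0.238) or knockdown replicate 1 (-0.11, adjusted p = 0.17) of 0 h, with no filter on low counts (-0.19, adjusted p = 0.0694) and with the compared groups only (-0.16, adjusted p = 0.313). RB1 was not called (-0.15 ± 0.08, edgeR, adjusted p = 0.103), and was called lower without control replicate 2 (-0.22, adjusted p = 0.0259) or knockdown replicate 1 (-0.23, adjusted p = 0.00669). Of 7 genes of the MuvB core and the factors that bind with it at CHR-bearing promoters, 1 was lower and 2 higher under TMM. Of all genes 28.3% were lower and 23.8% higher, and under ERCC scaling 4 of the 7 were lower, against 64.1%. RBBP4 was lower (-0.31 ± 0.06, edgeR, adjusted p = 0.000153), and LIN52 (0.35) and LIN54 (0.29) were higher, both with a negative sign under ERCC scaling (-0.31 and -0.36). Both calls were lost without control replicate 1 (LIN52 0.31, adjusted p = 0.086, and LIN54 0.28, adjusted p = 0.0903) or 2 (LIN52 0.33, adjusted p = 0.0636, and LIN54 0.18, adjusted p = 0.228), and that of LIN54 without knockdown replicate 1 (0.18, adjusted p = 0.173). In DESeq2's Wald test neither passed (adjusted p = 0.0524 for LIN52 and 0.0546 for LIN54). MYBL2 and FOXM1, which drive mitotic genes, were not called (0.10 and -0.15, edgeR, adjusted p = 0.412 and 0.087).

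Of 15 subunits and regulators of the ubiquitin ligases that direct cyclins to the proteasome, 9 were lower and 2 higher at 0 h under TMM scaling, against 28.3% and 23.8% of all genes, and 13 were lower and none higher under ERCC scaling, against 64.1% lower. At 3.5 h 8 were higher and 4 lower under TMM scaling, against 35.0% and 26.4%, and 1 was higher and 11 lower under ERCC scaling, against 4.71% and 71.7%. At 0 h UBE2C, the ubiquitin-conjugating enzyme of the anaphase-promoting complex, had -0.58 ± 0.06, SKP1 -0.81 ± 0.10 and FBXO5, an inhibitor of that complex, -0.98 ± 0.15 (edgeR, adjusted p = 2.64e-08, 2.59e-07 and 4.96e-06). A list of other cyclins also held CCNB1IP1, which encodes a cyclin B1 interacting protein and is not itself a cyclin. Of 13 genes tested from that list, 9 were lower and none higher at 0 h under TMM scaling, against 28.3% of all genes lower. All 13 were lower under ERCC scaling, against 64.1%, while CCNB3 and CCNO were not tested. At 3.5 h 4 of these were higher and 6 lower under TMM scaling, against 35.0% and 26.4% of all genes, and all 13 were lower under ERCC scaling, against 71.7%. At 0 h CCNJL averaged 14.2 ± 2.23 CPM in knockdown and 33.5 ± 2.54 CPM in control, a log2 fold change of -1.24 ± 0.10 (edgeR, adjusted p = 4.66e-10), followed by CCNL2 at -0.49 ± 0.05 and CCNY at -0.54 ± 0.05 (edgeR, adjusted p = 6.88e-09 and 1.01e-08). CCNG1, a p53 target, was lower (-0.33 ± 0.08, edgeR, adjusted p = 0.0012), a call lost in a fit of the compared groups only (-0.29, adjusted p = 0.06).

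For each cyclin other than CCNE1 the 3 genes most like it were named by the smallest root-mean-square difference of centred log2 CPM over the 18 libraries, among 10629 genes with a mean of at least 5 CPM. CCNA2 was followed most closely, by CTR9, SS18 and GPAM (0.042 to 0.045 log2 units), and CCNA1 least closely, by ACHE, SEMA3B and GFRA1 (0.28 to 0.33). For CCNB1 they were CUL1, CDYL and PRMT6, for CCNB2 CYB5B, MORF4L2 and IK, for CCND1 TRIT1, METTL17 and SLC9A7, and for CCND2 COL4A5, STX16 and HADH. For CCND3 they were PLEKHM2, SYN1 and NLGN2, and for CCNE2 CENPI, PDE3B and KPNA2. CUL1, the closest to CCNB1 at 0.082, is a scaffold of a ubiquitin ligase that acts on cyclins. These are likenesses over libraries that share their time and genotype, given as a description.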

How the data were processed

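RNA was made from polyadenylated transcripts, with ERCC spike-in RNA added after purification, and sequenced in 18 libraries, 3 per genotype and time. Per the submitters' processing notes, fastp 0.21.1, HISAT2 2.2.1, SAMtools 1.12 and featureCounts 2.0.3 were used with hg38. The sources used here give neither the annotation release nor the strand setting. The authors deposited raw counts per gene and, in a second table, a signal (each count times 1 factor per gene and 1 per library), 1 half-life in hours per gene and genotype, and the log2 ratio of the 2 half-lives. All are the authors' deposited values, and only the counts were tested.

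Total counts were 15037492 to 15519197 per library, and ERCC took 0.0857 to 0.544% of them. Genes were named by Ensembl ID from GENCODE release 29, which also gave lengths and coordinates. Genes passed edgeR's filterByExpr (minimum count 10, by group), which kept 16760 and removed 45100. edgeR 4.0.16 in R 4.3.3 fitted all 18 libraries with 1 mean per group (quasi-likelihood F test, Benjamini-Hochberg over all genes, threshold 0.05). Knockdown against control at each time used TMM scaling. Changes over time, their genotype differences and slopes used the summed ERCC counts. The biological coefficient of variation was 6.29% with TMM and 16.3% with ERCC scaling, so smaller differences can pass with TMM. SE is the fold change over the square root of F. The fits were checked on simulated counts. The simulated spike-in varied between libraries by counting error alone, so that check does not cover the real spread of the ERCC scale. Alternatives were the other scaling, ERCC rows scaled by TMM, DESeq2 1.42.0 (size factors, Wald test), no filter, a fit of only the compared groups, a block for replicate number, and each library left out. CDKN2B's interval covers counting error only.

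The 9 cyclins and the gene lists were chosen with earlier results of these data known. Named from each list were the 3 genes with the smallest p at 0 h and genes listed by name beforehand, all others being counted. Promoters are RefSeq's (GRCh38.p14), shown as the 250 bases before the start. No protein sequence was used here. The genes most like CCNE1 are not reported here.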

Additional observations from a re-analysis of the deposited data

Results flagged for a closer look

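On the ERCC scale, used here for changes over time, there were 6 results that differed between the genotypes by a test of the difference itself, all in CCND2 and CCND3. These were 2 of the 9 cyclins for each measure. Of all genes 19.8% were called from 1.5 to 3.5 h, 12.2% from 0 to 3.5 h and 13.4% for the slope. The medians of all genes were -0.49, -0.32 and -0.098. Under TMM scaling other cyclins were called too, with a positive difference: CCNA1, CCNA2, CCNB1 and CCNB2 from 0 to 3.5 h, and CCNA2, CCNB1, CCNB2 and CCNE1 from 1.5 to 3.5 h, where CCND3 was not called, and CCNA1, CCNA2 and CCNB1 for the slope. For CCND2 on the ERCC scale, the log2 change in knockdown minus that in control was -0.998 from 1.5 to 3.5 h and -0.95 from 0 to 3.5 h, and the slope differed by -0.28 log2 units per hour. For CCND3 the same 3 differences were -0.90, -0.91 and -0.27. These 6 have a negative sign, which is a larger loss in knockdown than in control, and the 3 measures of a gene share libraries, so they are not independent of each other. Beside them, the summed ERCC counts of the 3 libraries at 0 h spread from 22846 to 32264 in knockdown and from 13092 to 18624 in control, and the part of this spread in the differences was not tested. Within the D-type family, where spike-in counts do not enter, the CCND2 share at 3.5 h was 25.5% in knockdown and 32.3% in control. The CCND3 share was then 7.57% in knockdown and 7.25% in control, groups that overlapped, against 9.45% and 6.83% at 0 h.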

How the results depend on the processing

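Scaling changed the most. Signs that turned are listed where at least 1 of the 2 fits passed, unless stated. Under ERCC scaling the knockdown-over-control value turned negative at 0 h for CCND2 (-0.64), CCND3 (-0.27), CCNE1 (-0.65), CDKN1B (-0.011), LIN52 (-0.31) and LIN54 (-0.36), and at 3.5 h for CCNA2 (-0.89), CCNB1 (-0.34) and CCNE1 (-0.80). Under TMM scaling the change from 0 to 1.5 h turned positive in knockdown for CCNA1 (0.41), CCNB2 (0.18) and CCND2 (0.041). With neither fit passing, it also turned positive there for CCNA2 (0.16), CCND1 (0.12) and CCNE2 (0.39). In control it turned positive for CCNA2 (0.097), CCNB2 (0.16), CCND1 (0.026), CCND2 (0.10), CCND3 (0.034) and CCNE1 (0.0068). The change from 0 to 3.5 h did so in knockdown for CCNA1 (0.92), CCNA2 (0.078), CCNB2 (0.25), CCND1 (0.21) and CCND2 (0.24). In control that change did so for CCNA1 (0.033), CCNB2 (0.0053), CCND1 (0.15), CCND2 (0.77) and CCND3 (0.43). Slopes did so in knockdown for CCNA1 (0.26), CCNA2 (0.019), CCNB2 (0.069), CCND1 (0.059) and CCND2 (0.069), and in control for CCNA1 (0.014), CCND1 (0.042), CCND2 (0.23) and CCND3 (0.13). The genotype difference turned positive from 1.5 to 3.5 h for CCNA2 (0.45), CCNB2 (0.23) and CCNE1 (0.43), and from 0 to 3.5 h for CCNB2 (0.24). With neither fit passing, it also turned positive for CCNA1 (0.25) from 1.5 to 3.5 h. From 0 to 3.5 h that held for CCND1 (0.065), CCNE1 (0.23) and CCNE2 (0.39). For the slope difference it held for CCNB2 (0.072), CCND1 (0.017), CCNE1 (0.072) and CCNE2 (0.11).

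Counts of calls moved too. Under TMM scaling 2849 genes were called from 0 to 1.5 h in knockdown (7947 on the ERCC scale) and 4436 in control (12503), with 2 of 9 cyclins in control (9). In knockdown 8027 were called from 0 to 3.5 h (16311) and 7062 for the slope (16340). Genotype differences under TMM numbered 206 from 0 to 1.5 h (4), 4997 with 5 cyclins from 1.5 to 3.5 h (3317 with 2), 6174 with 6 from 0 to 3.5 h (2043 with 2) and 5302 with 5 for the slope (2241 with 2). With the compared groups only, 4506 genes were called from 0 to 1.5 h in knockdown and 1327 with 1 cyclin for the 0 to 3.5 h difference, as for a slope from 0 and 3.5 h alone (1327, 1 cyclin). Without a filter the differences numbered 2 from 0 to 1.5 h and 2154 from 1.5 to 3.5 h, and DESeq2's Wald test gave 1 from 0 to 1.5 h. The cause was not tested.

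Leaving out 1 library at a time, genes called from 0 to 1.5 h ran from 2069 to 10160 in knockdown (1 to 7 cyclins) and from 7097 to 13509 in control (2 to 9). Genotype differences ran from 0 to 39 genes for 0 to 1.5 h, from 1209 to 3824 for 0 to 3.5 h (0 to 2 cyclins), from 1568 to 5029 for 1.5 to 3.5 h (1 to 2) and from 1112 to 4676 for the slope (0 to 2). Same-numbered libraries did not deviate together (median r = -0.02 over 45 pairs, lowest -0.29, and 5 of 18 libraries closest to their own number), so the numbers do not pair them. With the replicate block 8702 genes and 6 cyclins were called at 0 h, against 8728 and 6 without it, and no count of calls moved by over 1.5 times.

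Over all alternatives, 2786 values of the 9 cyclins kept their side of the threshold, 65 fell below the threshold and 27 passed it. A further 38 changed sign where either fit passed. Sign changes with neither fit passing are among the 2786, such as CCND3 at 1.5 h (0.27 under TMM and -0.28 under ERCC scaling). CCNA1 and CCNE2 rest on at most 1105 and 272 reads per group, and CCNA1 in control on at most 49. SEs of about 0.28 on the ERCC scale limit the genotype differences.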
